A study of Anopheles gambiae with 6 samples.

Results

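Among the transcripts of the malaria mosquito Anopheles gambiae measured in dissected larval salivary glands and in whole larvae, 83 of 16884 Anopheles probe sets were detected at a moderate to high level in the gland and yet lay at least 4-fold and less than 16-fold below the whole animal. A probe set is a group of short probes on the array that reads the RNA of a single transcript or of a set of related transcripts, and its value is given here as log2 of the hybridization signal after RMA, the authors' summary method. The 83 were chosen from these values: the mean of the 3 gland arrays was at least 7, the gland mean minus the whole-larva mean was at or below -2 and above -4, and every gland array lay below every whole-larva array. The difference between the tissues is therefore a description of how the probe sets were picked and carries no test. The 83 probe sets carry 72 different identifier numbers, so some of them share a number and may read the same or related transcripts.

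Salivary gland was taken from larvae of the last instar of strain G3, in 3 pools of 50 animals each, and was set against whole larvae of the same instar and strain, in 3 pools of 200 animals each. Both came from larvae reared at 28 degrees with 12 hours of light, fed on yeast and ground fish food. The glands were dissected in ethanol and kept frozen until RNA extraction, and each pool was labelled with biotin and hybridized to its own Affymetrix array. Neither tissue was treated, the labels give no animal age, and a pool hides the variation between animals. Whole larvae contain the gland as well, so the comparison sets a part against the whole.

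The larval salivary glands are a pair of small secretory organs in the thorax that empty into the mouth and are rebuilt at metamorphosis into the glands of the biting adult. Most of a larva consists of other tissues, namely gut, fat body, muscle, nervous system and the epidermis that makes the cuticle. A transcript used mainly in those tissues is therefore dim in a clean gland preparation, and a transcript that is used everywhere but less in the gland is dim there as well. In bulk tissue, fewer cells that use a transcript and less of it per cell cannot be told apart. The files do not pair the identifiers with genes, and the gene table at hand matched 0 of the 83, so no gene, marker of another tissue or biological role is named here. The tissue labels could for the same reason not be checked against salivary or other tissue markers.

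The arrays of a tissue resembled each other. Pearson's r over the Anopheles probe sets, which are no independent replicates, ran from 0.971 to 0.986 for pairs of gland arrays and from 0.926 to 0.941 for pairs of whole-larva arrays. The median Anopheles value lay between 5.82 and 5.85 on the gland arrays and between 5.82 and 5.91 on the whole-larva arrays. The small number of arrays limits the precision of every value.

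The rule fixes the 83 as bright in the whole larva and above the middle of the gland's range, and the levels below describe that choice. Their gland means had a median of 7.81 (interquartile range 7.35 to 8.68), and their whole-larva means had a median of 10.75 (interquartile range 10.01 to 11.60). On that scale, the median gland level exceeded 88.7% of all Anopheles gland means, and the median whole-larva level exceeded 97.7% of all whole-larva means. The median difference was -2.68 (interquartile range -3.36 to -2.34), so the typical transcript was 6.40-fold lower in gland and stood at 15.6% of its whole-larva level. Of the 83, 48 lay less than 8-fold below whole larvae and 35 lay at least 8-fold below. Between the lowest whole-larva array and the highest gland array the gap was 1.81 at the median, more than 1 for 70 probe sets and under 0.5 for 8.

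**Figure D1:**
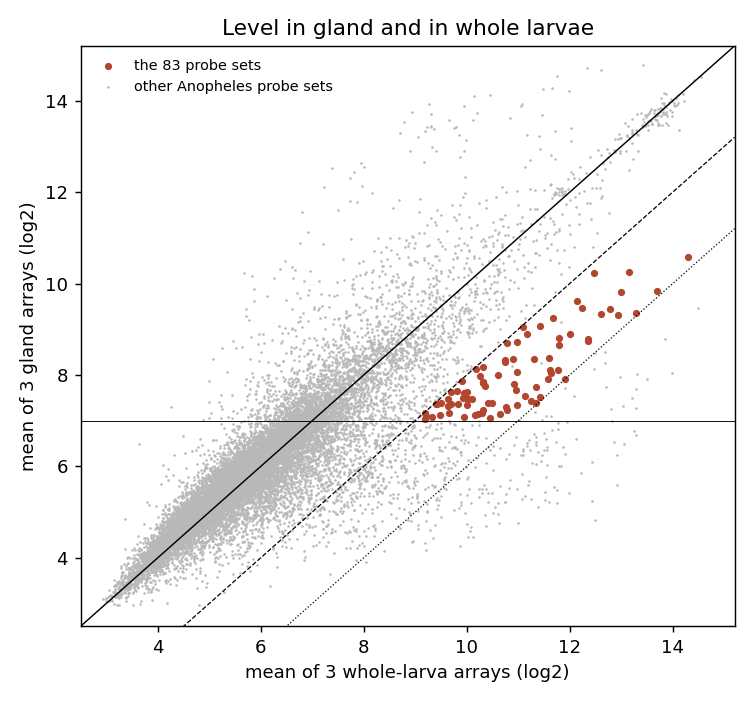
Mean log2 value in salivary gland (vertical axis, 3 arrays) against whole larvae (horizontal axis, 3 arrays) for all Anopheles probe sets in grey and the 83 chosen ones in red. The solid line marks equal levels, the dashed and dotted lines mark differences of -2 and -4, and the horizontal line marks a gland mean of 7; the red points run from a gland mean of 7.03 to 10.57.

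The gland signal of these transcripts stood clear of the array's background in most cases. The background was read from 290 probe sets with purely numeric identifiers, whose target the sources used here do not name, as the 95th percentile of their values on each array. This floor lay at 6.69, 6.64 and 6.62 on gland replicates 1, 2 and 3, and 76 of the 83 exceeded it on all 3 gland arrays. The other 7 exceeded it on 2 gland arrays. On whole-larva replicates 1, 2 and 3 the same floor was lower, at 5.99, 5.97 and 6.11, so it differed between the tissues. The reason was not tested. Against the lower floor set by 4506 probe sets of Plasmodium form, at 4.12, 4.13 and 4.18, all 83 passed on every gland array. Over all Anopheles probe sets, 23.8% exceeded the numeric floor on every gland array. Since the rule asks for a gland mean of at least 7, the higher count among the 83 is a consequence of the choice.

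The residual levels were not spread evenly. Nor were those of the 3491 Anopheles probe sets with a gland mean of at least 7, which include the 83. Their gland means had a median of 7.93 (interquartile range 7.36 to 8.97), so the uneven spread was not particular to the 83. A gland mean between 7 and 8 was found for 49 of the 83, a mean between 8 and 9 for 20, and a mean of at least 9 for 14, of which 3 reached 10. The 34 with a gland mean of at least 8 had a median difference of -2.94, and the 49 dimmer ones had -2.54. Many candidates lay near the limit on gland level: 14 probe sets exceeded it by less than 0.25, and 21 that met every other condition missed it by at most 0.25. The probe set just inside this limit had a gland mean of 7.03, and the one just outside had 6.996. At the limit on the smaller difference the nearest values were -2.03 inside and -1.97 outside. At the limit on the larger difference they were -3.999 inside and -4.02 outside. A further 7 probe sets met the limits on level and difference but had overlapping arrays, and their whole-larva arrays spanned 2.86 to 7.50.

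The brightest of the 83 in gland was Ag.2R.270.0_CDS_a_at, a coding-region probe set whose identifier names chromosome arm 2R. It measured 10.63, 10.55 and 10.53 on gland replicates 1, 2 and 3 and 14.14, 14.41 and 14.36 on whole-larva replicates 1, 2 and 3. Both tissues were tight, and the lowest whole-larva array lay 3.51 above the highest gland array. The gland mean was 10.57 ± 0.052 and the whole-larva mean 14.30 ± 0.14 (SD, n = 3 each), with a difference of -3.73 (SE 0.169 in the limma fit) or 13.3-fold. A transcript this abundant in the animal thus stood at 7.51% of its whole-larva level in the gland preparation, at a gland level that varied by 0.10 over the 3 pools. Centring each array on the median of the rows with numeric identifiers, chosen after the data were seen, moved its difference to -4.16, outside the range that defined the 83.

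The probe set with the widest gland values was Ag.3L.184.0_UTR_at, whose identifier names an untranslated region on arm 3L. It measured 8.91, 8.53 and 4.58 on gland replicates 1, 2 and 3 and 12.53, 10.10 and 10.28 on whole-larva replicates 1, 2 and 3. It was bright on gland replicates 1 and 2 and, on replicate 3, below that array's Anopheles median of 5.82 and below the numeric floor. Its gland mean was 7.34 ± 2.40 and its whole-larva mean 10.97 ± 1.36 (SD, n = 3 each), with a difference of -3.63 (SE 1.17 in the limma fit). Without gland replicate 3 the difference was -2.25. Without gland replicate 1 it was -4.41, without gland replicate 2 -4.22 and without whole-larva replicate 2 -4.06, all outside the range that defined the 83. Centring on the numeric identifiers, chosen after the data were seen, gave -4.05, also outside it. In the other settings tried the difference stayed inside that range.

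**Figure D2:**
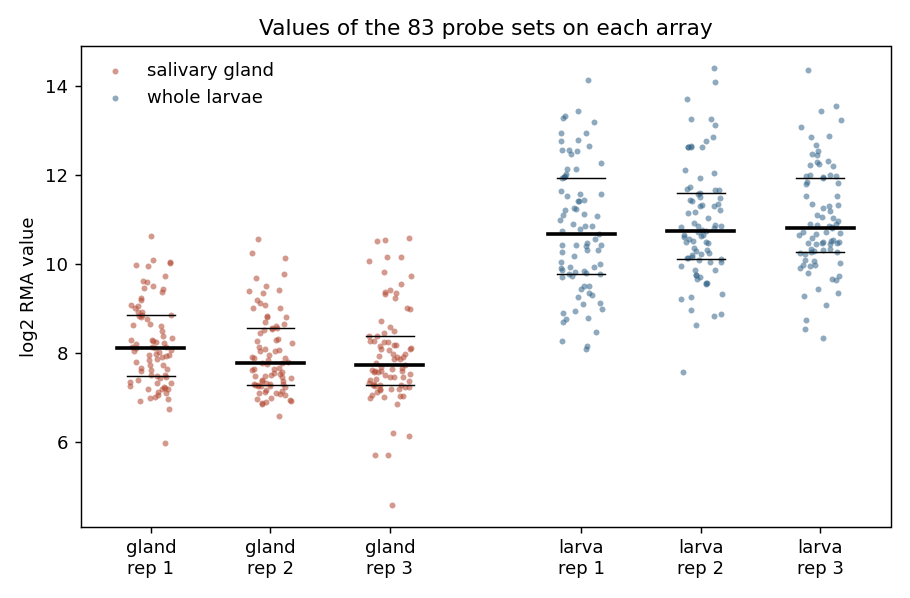
Log2 RMA values of the 83 probe sets on each of the 3 gland arrays (red) and the 3 whole-larva arrays (blue). Each point is a probe set, the thick bar is the median and the thin bars are the quartiles; the gland medians are 8.11, 7.76 and 7.72 and the whole-larva medians 10.67, 10.74 and 10.80.

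The spread between arrays of the same tissue is set beside that of other groups, with no test of the differences. For the 83 the median SD over the 3 gland arrays was 0.280, against 0.189 for the 3491 Anopheles probe sets with a gland mean of at least 7, which include the 83, and 0.146 for all Anopheles probe sets. It was 0.289 for 23 probe sets at least 16-fold lower in gland with a gland mean of at least 7 and no overlap, and 0.284 for 177 at least 4-fold higher in gland by the same conditions. It was 0.218 for all 166 probe sets at least 16-fold lower without overlap, and 0.208 for 414 with the same deficit as the 83 but a gland mean under 7. Over the 3 whole-larva arrays the median SD of the 83 was 0.544, against 0.326 for those 3491 and 0.262 for all. It was 0.631 for the 414, 0.557 for the 166, 0.438 for the 23 and 0.420 for the 177. The whole-larva SD was the larger of the pair for 60 of the 83 (72.3%), close to the 74.6% found over all Anopheles probe sets. A gland span of more than 1, from the lowest to the highest array, was found for 17 of the 83 (20.5%), for 26.1% of the 23, 19.2% of the 177 and 15.7% of the 166, and for 7.85% of the 3491. The span in whole larvae exceeded 1 for 43 and 2 for 17 of the 83. These counts were 253 and 85 of the 414, 89 and 30 of the 166, 7 and 2 of the 23, and 61 and 8 of the 177. They were 779 and 117 of the 3491, and 2661 and 474 of all 16884 Anopheles probe sets. Whole-larva replicate 1 was the lowest whole-larva array for 41 of the 83 (49.4%), for 78.3% of the 23, 60.2% of the 166, 48.6% of the 177 and 30.2% of all Anopheles probe sets.

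In the limma fit over all 16884 probe sets, 61 of the 83 (73.5%) were lower in gland by 2-fold or more and with a Benjamini-Hochberg adjusted p below 0.01, where 4.99% of all probe sets were. Groups that do not overlap with gland below whole larva, which the rule required of the 83, were found for 17.7% of all probe sets. The fit uses the contrast that chose the 83, so nothing is read from these counts beyond how the spread divides them. The 22 that missed the limits had a median SD of 0.545 in gland and 1.12 in whole larvae, and the 61 that met them had 0.230 and 0.418. Leaving out gland replicate 2 reduced the 61 to 35, and leaving out gland replicate 3 reduced it to 40. Over all 16884 probe sets the same fits called 410 and 452 lower in gland in place of 843.

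**Figure D3:**
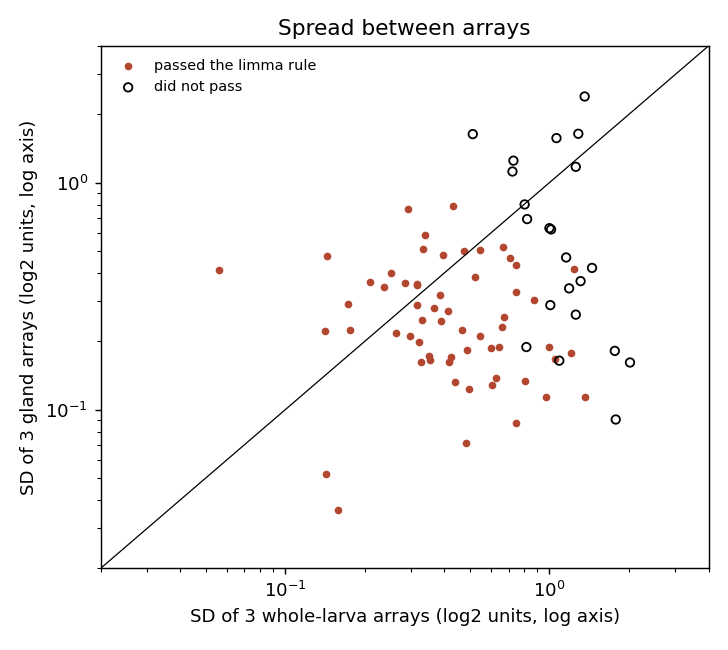
SD over the 3 gland arrays (vertical, log axis) against SD over the 3 whole-larva arrays (horizontal, log axis) for the 83 probe sets, filled where the limma limits were met (61) and open where they were not (22). The line marks equal SDs, and 60 of the 83 lie on its whole-larva side.

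Other tissue left on the dissected glands would raise all its transcripts together in a pool that held more of it. An equal amount in every pool, or a varying mixture of tissues, need not do so, and the gland arrays cannot decide on carry-over. Whether the residual gland signal moved as a block over the 3 gland pools is described here and was not tested. The medians of the 83 were 8.11, 7.76 and 7.72 on gland replicates 1, 2 and 3. As a share of the whole-larva mean, the median was 17.5%, 14.4% and 13.4%. Replicate 1 was the brightest gland array for 45 of the 83 (54.2%), replicate 2 for 10 (12.0%) and replicate 3 for 28 (33.7%). Among the 3491 probe sets with a gland mean of at least 7 these shares were 41.3%, 17.8% and 40.9%.

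The 83 did not move as a single block. Of them, 49 were brighter on gland replicate 1 than on replicate 3 (59.0%) and 34 were dimmer, while 52.4% of the 3491 bright probe sets were brighter on replicate 1. The median of replicate 1 minus replicate 3 was 0.16, with an interquartile range of -0.23 to 0.53 and extremes of -3.28 and 4.33. For 24 of the 83 the 2 arrays were within 0.25 of each other. The most frequent order of the arrays was replicate 1 above 2 above 3, in 31 of the 83 (37.3%), and this was also the most frequent order among the 3491 (29.6%). The opposite order was found in 11 of the 83 (13.3%) and in 22.3% of the 3491. The order with replicate 3 highest and replicate 2 lowest accounted for another 17.

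**Figure D4:**
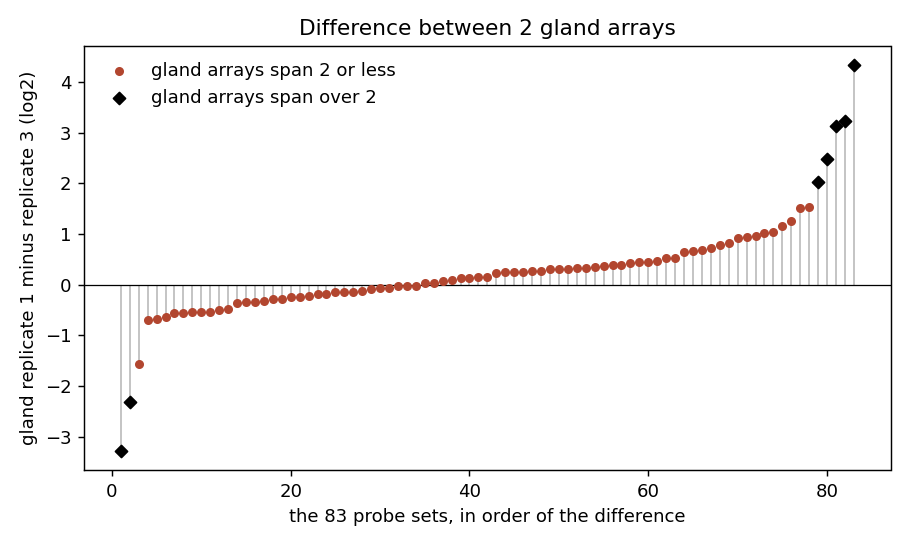
Gland replicate 1 minus gland replicate 3 (log2) for each of the 83 probe sets, sorted by that difference; black diamonds are the 7 whose gland arrays span more than 2. Values run from -3.28 to 4.33, with 49 above 0 and 34 below 0.

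A large part of the spread between the gland arrays came from a few probe sets. The deviations of the 3 gland arrays from each probe set's own mean have 2 free directions, so the leading direction holds at least 50% of their summed squares. Its share ignores sign: probe sets that move in opposite senses along it count alike, so a high share does not show that they move together. In the 83 it held 87.6% and set replicate 1 (weight 0.60) against replicate 3 (weight -0.78), with replicate 2 between them (0.18). The 3491 bright probe sets had nearly the same direction (0.63, 0.14 and -0.77 for replicates 1, 2 and 3), with 80.6% along it, so nothing in it was particular to the 83. The 7 probe sets whose gland arrays spanned more than 2 made up 65.8% of the summed squares. Of these 7, 5 were brighter on replicate 1 and 2 on replicate 3, and none of the 7 met the limma limits (0 of 7). In the other 76 the leading direction held 69.0%, and with every probe set given the same weight it held 62.9% of the 83 and 67.5% of the 3491.

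Of the 7 widest probe sets, 5 gave a clearly different value on each gland array, and 2 had a single low array. One on arm 3R measured 5.96, 7.43 and 9.24 on gland replicates 1, 2 and 3, and one on 2R measured 7.84, 8.69 and 10.16. These were lowest on replicate 1. In the opposite direction, one on 2R measured 8.93, 7.80 and 5.70, another on 2R 8.62, 7.65 and 6.14, and one on X 8.83, 7.48 and 5.70. These were lowest on replicate 3. The remaining 2, both on 3L, were close on replicates 1 and 2 and low on replicate 3, at 8.21, 8.03 and 6.19 for one and at the values of Ag.3L.184.0_UTR_at given above for the other. These probe sets were singled out after their values were seen.

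Other groups of transcripts put the pattern of the gland arrays in context. The 83 deviated from their own gland means by a median of 0.14, -0.079 and -0.040 on gland replicates 1, 2 and 3, and the 166 probe sets at least 16-fold lower in gland, with no overlap, by 0.044, -0.046 and -0.055. Both were highest on replicate 1. The 177 probe sets at least 4-fold higher in gland, with a gland mean of at least 7 and no overlap, deviated by -0.18, -0.059 and 0.21. They were highest on replicate 3, which was the brightest gland array for 28 of the 83 (33.7%) and for 126 of the 177 (71.2%). The difference between these groups was not tested, since 3 gland arrays are the only samples. The 3′ minus 5′ signal of the actin control probe sets, often used to judge RNA integrity, was 1.03, 1.16 and 0.91 on gland replicates 1, 2 and 3, and that of Gapdh was 0.78, 0.64 and 0.91. The mean of the hybridization spikes bioB, bioC, bioD and cre, which are added to the sample and come from no mosquito RNA, was 9.24, 9.46 and 9.48. On whole-larva replicates 1, 2 and 3 the actin values were 1.35, 1.64 and 1.40 and the Gapdh values 0.87, 0.83 and 0.95. The spike means there were 10.09, 9.29 and 10.38. The part of RNA integrity, of hybridization or of other tissue in the order of the gland arrays was not tested. Nor was the part of RNA integrity or hybridization in the difference between the tissues.

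**Figure D5:**
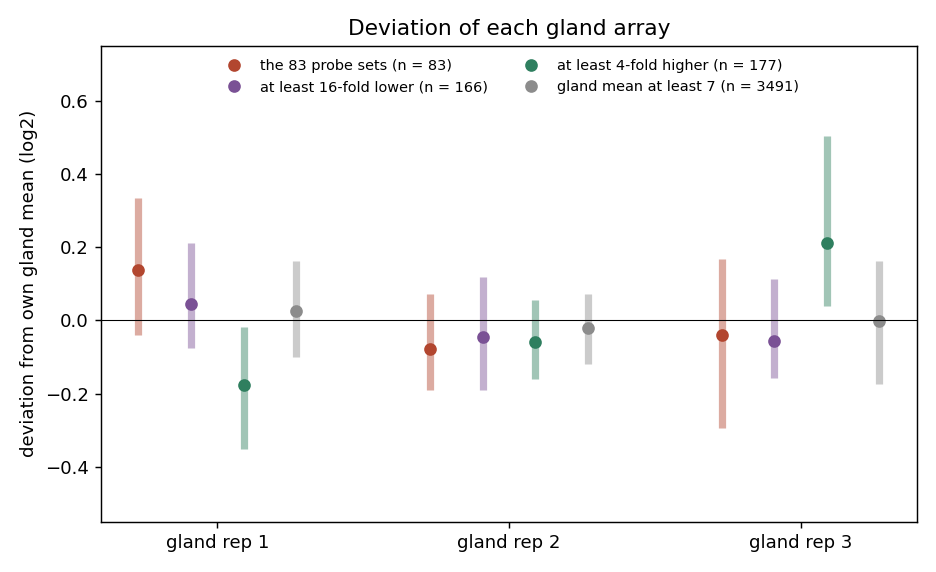
Deviation of each gland array from a probe set's own gland mean (log2) for the 83 probe sets, the 166 at least 16-fold lower in gland, the 177 at least 4-fold higher in gland and the 3491 with a gland mean of at least 7. Points are medians and bars are interquartile ranges over probe sets; the 83 are highest on replicate 1 (0.14) and the 177 on replicate 3 (0.21).

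The size of the gland remainder can be set against the most depleted transcripts. Of 396 Anopheles probe sets at least as bright in whole larvae as the median of the 83 (10.75), 91 stood in gland at no more than 6.25% of the whole-larva level, 45 between 6.25% and 25%, 20 between 25% and 50% and 240 above 50%. The lowest share among the 396 was 0.489% on gland replicate 1, 0.509% on replicate 2 and 0.447% on replicate 3. The fifth percentile of the share was 1.68%, 1.49% and 1.31% on replicates 1, 2 and 3. The 396 include 42 of the 83. Others of the 396 reached far lower gland levels on the same arrays, but the rule kept such transcripts out of the 83, so the contrast follows from the choice. The array's background sets a lower bound on such shares, and the sources used here do not say in which tissue a transcript is made.

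Probe sets that share an identifier number did not always show the same difference. On the array, 42 of the 72 numbers had a single probe set and 30 had several. In 6 of those 30 every probe set was among the 83, and in 24 at least 1 was not. The 44 probe sets left outside had a median difference of -2.42, ranging from -5.20 to 0.82. Of these 44, 37 lay lower on every gland array than on every whole-larva array, 15 were at least 16-fold lower, 9 differed by the same range as the 83 but had a gland mean under 7, and 20 had a difference above -2. Of those 20, 3 were higher in gland. The gland mean was under 7 for 34 of the 44. A probe set dim in both tissues can show only a small difference, and the whole-larva levels of the 44 were not summarized.

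Several of the 83 carried the same number in 10 cases, with 21 probe sets between them, 9 numbers with 2 and 1 with 3. The differences within a number spread by 0.35 at the median and by 1.49 at most, inside a window that the rule confines to -4 to -2. Nothing is read from how close they are. The number with 3 probe sets among the 83 lay on arm 2L. Its brightest one measured 10.02, 10.14 and 10.58 in gland and 12.94, 13.25 and 13.23 in whole larvae. The second measured 9.62, 9.69 and 10.15 in gland and 12.65, 13.26 and 13.08 in whole larvae. The last of the 3, in the untranslated region, measured 9.08, 9.51 and 9.42 in gland and 12.56, 12.76 and 12.48 in whole larvae. Another probe set of this number lay outside the 83, with a gland mean of 5.32 and a whole-larva mean of 6.30. The 3 among the 83 were all lowest on gland replicate 1, while replicate 1 was the lowest gland array for 17 of the 83. In 6 of the 10 numbers all probe sets lay on the same side between gland replicates 1 and 3, and in 2 of the 10 they had the same order of all gland arrays. With 1 probe set kept per number, the one brightest in gland, 43 of 72 were brighter on replicate 1 than on replicate 3 and the leading direction held 87.7%.

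Choosing the probe sets again on 5 arrays allowed the left-out array to be read without having served the choice. Without gland replicate 1 the rule picked 88 probe sets, 73 of them among the 83. The median of the left-out array minus the mean of the other 2 was 0.19, and it lay below every whole-larva array for 86 of the 88. Without gland replicate 2 it picked 83, of which 72 were shared, and replicate 2 minus the others had a median of -0.11 and lay below every whole-larva array for all 83. Without gland replicate 3 it picked 84, of which 68 were shared, and replicate 3 minus the others had a median of -0.042 and lay below every whole-larva array for 82. A gland value of at least 7 was found on the left-out array for 81 of 88, 69 of 83 and 71 of 84. The other 5 arrays made each choice, and the shares over all Anopheles probe sets were not computed for the left-out arrays. Nothing is therefore read from these counts or from those for the whole-larva arrays below.

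Without whole-larva replicate 1 the rule picked the most probe sets, 118, of which 77 were among the 83. That array minus the other whole-larva arrays gave a median of -0.79 over the 118. Measured against that array alone, the median difference of the 118 was -1.73, while on the 5 arrays that chose them it was -2.74. For 20 of the 118 the left-out array did not lie above every gland array. Without whole-larva replicate 2 or 3 the rule picked 81 and 89, of which 72 and 69 were among the 83, and the left-out array lay above every gland array for 81 and for 86 of them.

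The 83 were spread over all chromosome arms named by the identifiers. There were 28 on 2R (33.7%), 20 on 2L (24.1%), 12 on 3L (14.5%), 10 on 3R (12.0%) and 7 on X (8.43%), with 6 on no placed arm (7.23%). Of all Anopheles probe sets, 26.3% lay on 2R, 20.3% on 2L, 14.8% on 3L, 18.8% on 3R and 8.31% on X, with 11.5% unplaced. The median gland level by arm ran from 7.43 on 3L to 8.05 on 2R, and the unplaced ones had 8.27. Gland replicate 1 exceeded replicate 3 for 15 of the 28 on 2R, 9 of the 20 on 2L, 10 of the 12 on 3L, 6 of the 10 on 3R, 6 of the 7 on X and 3 of the 6 unplaced. Some of these probe sets share a number, on 3L and X among others. The shares by arm over all Anopheles probe sets were not computed, so nothing is read from these counts.

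The identifiers of the 83 named a coding region for 60 (72.3%), an untranslated region for 15 (18.1%) and neither for 8. Among the 1007 probe sets whose whole-larva mean reached the lowest of the 83 (9.18), 68.5% named a coding region and 17.0% an untranslated region, and among all Anopheles probe sets 83.3% and 4.68% did. The suffix _a_at, which Affymetrix uses for probe sets that match several variants of a gene, was carried by 37 of the 83 (44.6%) and 36.6% of the 1007. The suffix _s_at, used for probe sets that can match several genes, was carried by 17 of the 83 (20.5%) and 19.0% of the 1007, and a plain _at was carried by 34.9% and 44.0%. These shares were not tested. The 17 _s_at probe sets may mix the signal of related genes, and their median difference was -2.54. The 15 in untranslated regions had a median gland SD of 0.189 and the 60 in coding regions 0.311.

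The identifier numbers of the 83 were low. Their median was 289, and 59 of the 83 (71.1%) had a number of at most 500, compared with 21.4% of all Anopheles probe sets. Of the 1007 probe sets bright in whole larvae, 63.9% had such a number and the median was 317. Low numbers were thus shared by bright larval transcripts in general, and no test was made of the remaining difference.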

How the data were processed

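RNA from 3 gland pools and 3 whole-larva pools was read on 6 Affymetrix arrays. The authors deposited log2 values made with RMA, per the submitters' processing notes; that the scale is log2 was taken from the values and from that name. The version and settings of RMA, whether the arrays were normalized together, and any batch are not stated in the labels used here. No 2 arrays held identical values (0 pairs). Of 22761 rows, the 16884 whose identifier starts with Ag. were used. Here the rule was applied to these values, and medians, SDs, orders of the gland arrays and the leading direction of their deviations (singular value decomposition) were computed with Python 3.11.15, pandas 2.3.3 and numpy 2.4.6. A limma 3.58.1 fit in R 4.3.3 (lmFit, eBayes with intensity trend, group as the only term, all 6 arrays, Benjamini-Hochberg over 16884) stood in for the plain test of the series' design and kept its 2-fold limit and 1% rate (adjusted p under 0.01). Fit and decomposition were tested on simulated data. Members and groups were chosen with earlier results of these data known. Since no file here links an identifier to a gene, 2 were printed by a set rule: the member with the highest gland mean and the one with the widest gland range. Marker lists were not used, for the same reason, and detection calls were not analysed here. Alternatives covered scaling, limits, probe set type, variance model, pairing and leaving out arrays. Figures were drawn with matplotlib 3.10.9.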

Additional observations from a re-analysis of the deposited data

Results flagged for a closer look

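Outside the Anopheles identifiers, 2 rows with identifiers of GenBank form met the same rule, among 937 such rows of which 26 had a gland mean of at least 7. They were noticed as a signal in rows that the comparisons above do not use. None of the 290 numeric, 4506 Plasmodium-form and 144 control rows met it (0 of each). The first measured 10.67, 11.01 and 10.86 in gland and 12.95, 13.13 and 14.27 in whole larvae, a difference of -2.60. The second measured 7.91, 8.08 and 8.20 in gland and 9.56, 10.79 and 10.74 in whole larvae, a difference of -2.30. Both were lowest on gland replicate 1. Both carry the suffix _s_at, and the sources used here do not name their target.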

How the results depend on the processing

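The number of probe sets follows its limits: 211 with a gland mean of at least 6 and 34 with at least 8, 148 with a difference at or below -1.5 and 49 at or below -2.5, in place of 83. Leaving out 1 array gave 81 to 118. The median gland level and the median difference moved by less than the spread between gland arrays in the 10 settings tried for each. Each of these settings chose the probe sets anew, and the rule bounds both medians, so nothing is read from how little they moved. The leading direction held 80.6% after centring on the numeric identifiers, 69.0% without the 7 widest probe sets and 62.9% with equal weights, all chosen after the data were seen, against 87.6%. No value exists without a gland array, since 2 arrays leave a single direction. The count brighter on gland replicate 1 than on replicate 3 was 68 of 100 after centring on the numeric identifiers and 46 of 89 without whole-larva replicate 3, in place of 49 of 83. Of the 83, the methods' t-test after Benjamini-Hochberg left 7 lower in gland, in place of 61 by limma, leaving out 1 array left 35 to 70, and with the replicate block 56 passed. Over all 16884 probe sets these settings called 97, 410 to 1044, and 698 lower, in place of 843. The deviations of same-numbered gland and whole-larva arrays correlated at 0.10, -0.087 and -0.0022, and those of differently numbered arrays at -0.17 to 0.19. Whether same-numbered pools shared a batch cannot be read from so few arrays. The causes of these changes were not tested.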

Other observations

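Within each chromosome arm, identifier number and brightness ran in opposite directions over all Anopheles probe sets. Spearman's rho between the number and the whole-larva mean was -0.35 on 2L (n = 3427), -0.37 on 2R (n = 4442), -0.35 on 3L (n = 2494), -0.39 on 3R (n = 3180) and -0.41 on X (n = 1403), and -0.11 among the 1938 unplaced. With the gland mean it ran from -0.39 on X to -0.045 among the unplaced. These are descriptions over probe sets that share arrays, and the sources used here do not say how the numbers were assigned.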
